A study of Mus musculus with 12 samples.

Results

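The JmjC histone demethylases described here are 10 genes of 54232 in the deposited count tables, namely Kdm2b, Kdm3a, Kdm3b, Kdm4a, Kdm4b, Kdm4c, Kdm5a, Kdm5b, Kdm6b and Jmjd6. They are members by symbol, a rule that uses no measured value, but the list was chosen with earlier results of these data known. Shares of the 10 set beside those of all genes are therefore descriptive. Gene counts come from 12 RNA-seq libraries of MMTV-NIC, a mouse breast cancer line in which every group carries a transgene with the mammary tumour virus promoter driving activated Neu (ErbB2) together with Cre recombinase. The groups, of 3 libraries each, were AXL KO cells in 1% O2 (hypoxia), AXL WT cells in 1% O2, AXL KO cells in 21% O2 (normoxia) and AXL WT cells in 21% O2. AXL, a receptor tyrosine kinase, belongs to the same family as TYRO3 and MERTK. The labels give neither the duration of hypoxia nor the number of knockout clones. They also do not state that replicates were independent cultures, and p-values then reflect the variation between these libraries alone, part of which may be technical.

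JmjC enzymes remove methyl groups from histone lysines by oxidation. They consume molecular oxygen and 2-oxoglutarate at an iron centre and release succinate and formaldehyde, so their catalysis depends on oxygen supply while several of their genes are known targets of the hypoxia-inducible factor HIF-1. The 10 genes cover the erasure of H3K9 methylation (Kdm3a, Kdm3b), of H3K9 and H3K36 methylation (Kdm4a, Kdm4b, Kdm4c), of H3K36 methylation (Kdm2b), of H3K4 methylation (Kdm5a, Kdm5b) and of H3K27 methylation (Kdm6b). Jmjd6 is the exception in function, a JmjC lysyl hydroxylase of splicing factors for which histone arginine demethylation was first described.

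The libraries held 45297267 to 58775422 counts over all genes. Axl had 78 to 105 counts per library in AXL KO hypoxia, 19395 to 28495 in AXL WT hypoxia, 164 to 200 in AXL KO normoxia and 47960 to 57291 in AXL WT normoxia, so it was low in every library titled AXL KO. The AXL WT hypoxia libraries stood apart in spread, with a biological coefficient of variation of 0.402, against 0.0740 in AXL KO hypoxia, 0.0895 in AXL KO normoxia and 0.0585 in AXL WT normoxia. Where leaving out its replicates changed a call of the 10 genes or moved a value widely, the value without them is given. With replicates 2 and 3 both out, the lone remaining library is assumed to vary like the other groups. Of 8 known hypoxia genes used as a check (Ankrd37, Bnip3, Car9, Egln1, Egln3, Ndrg1, Pdk1, Vegfa), 8 rose with hypoxia in AXL KO cells and 7 in AXL WT cells, and 8 were higher in AXL KO than in AXL WT normoxia. The 6 epithelial markers summed to 2278 to 2376 CPM (counts scaled to a common library total) in AXL KO hypoxia and 953 to 4487 in AXL WT hypoxia. Their sums were 2159 to 2446 in AXL KO normoxia and 3112 to 3202 in AXL WT normoxia. Krt8, Krt18 and Erbb2 made up nearly all of this. Erbb2 had 2407, 131 and 360 CPM in AXL WT hypoxia. Mean Krt8 and Krt18 were higher in AXL KO than in AXL WT hypoxia and lower in normoxia. Mean Epcam was lower in AXL KO than in AXL WT cells, at 9.31 against 64.1 CPM in hypoxia and 7.10 against 22.1 in normoxia. So was mean Cdh1, at 4.47 against 30.3 CPM in hypoxia and 5.53 against 10.8 in normoxia. Sums of other cell types' markers were far lower, but some moved with genotype. The 7 leukocyte markers summed to 49.0 to 55.4 CPM in AXL KO against 6.46 to 9.58 in AXL WT hypoxia, and to 59.5 to 85.2 CPM in AXL KO against 11.02 to 12.6 in AXL WT normoxia, with Ptprc and Adgre1 at 0 in AXL KO hypoxia. Cd68 made up nearly all of this sum, with means of 51.9 against 7.04 CPM in hypoxia and 71.4 against 11.5 in normoxia. Lyz2 went the other way, at 0.0155 against 0.181 CPM in hypoxia and 0.0115 against 0.393 in normoxia. The other leukocyte markers averaged at most 0.177 CPM in a group. The 5 endothelial markers summed to 15.9 to 17.8 CPM in AXL KO against 0.685 to 2.41 in AXL WT hypoxia, and to 3.28 to 4.68 CPM in AXL KO against 0.372 to 0.740 in AXL WT normoxia. Kdr made up nearly all of it in AXL KO cells, with means of 16.5 against 0.0355 CPM in hypoxia and 3.69 against 0.0829 in normoxia. Mean Pecam1, Cdh5 and Tek were lower in AXL KO than in AXL WT cells at both oxygen levels. Mean Vwf was lower in hypoxia and higher in normoxia. The 4 adipocyte markers summed to 4.60 to 4.61 CPM in AXL KO against 8.55 to 27.9 in AXL WT hypoxia, and to 8.65 to 13.6 CPM in AXL KO against 33.8 to 41.8 in AXL WT normoxia. Fabp4 made up nearly all of the adipocyte sum in every group. The 7 fibroblast markers summed to 67.8 to 75.2 CPM in AXL KO against 54.9 to 86.4 in AXL WT hypoxia, and to 82.7 to 96.5 CPM in AXL KO against 50.5 to 56.3 in AXL WT normoxia. Mean Pdgfra was lower in AXL KO than in AXL WT cells, at 9.38 against 56.4 CPM in hypoxia and 38.3 against 51.5 in normoxia. Mean Col1a1, Col1a2 and Dcn were higher in AXL KO than in AXL WT cells at both oxygen levels. Col1a1 had 40.6 against 15.96 CPM in hypoxia and 20.2 against 0.838 in normoxia. Col1a2 had 18.3 against 0.0935 CPM in hypoxia and 18.6 against 0.286 in normoxia. Dcn had 3.12 against 0.732 CPM in hypoxia and 11.7 against 0.299 in normoxia. The part of any of these in the results below was not tested. In bulk RNA, fewer cells of a type and less RNA per cell cannot be told apart.

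RefSeq promoter windows (GRCm38.p6) run from 250 bases before to 50 bases after the annotated start. Kdm3b was left out of the search, and windows were matched for 6 of the 10 genes. These are shown because the results turn on induction by low oxygen, and the capitals mark the 5-letter HIF core motifs ACGTG and GCGTG on either strand. The first 3 belong to genes that rose with hypoxia in both genotypes, and Kdm4a fell in both. The window nearest to the deposited gene's own 5′ end was taken where several existed.
Kdm3a: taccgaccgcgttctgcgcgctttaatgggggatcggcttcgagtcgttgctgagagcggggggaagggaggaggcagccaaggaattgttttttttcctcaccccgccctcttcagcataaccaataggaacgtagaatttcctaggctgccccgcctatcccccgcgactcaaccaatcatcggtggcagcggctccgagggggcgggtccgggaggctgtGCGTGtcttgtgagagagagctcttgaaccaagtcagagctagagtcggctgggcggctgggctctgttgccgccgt
Jmjd6: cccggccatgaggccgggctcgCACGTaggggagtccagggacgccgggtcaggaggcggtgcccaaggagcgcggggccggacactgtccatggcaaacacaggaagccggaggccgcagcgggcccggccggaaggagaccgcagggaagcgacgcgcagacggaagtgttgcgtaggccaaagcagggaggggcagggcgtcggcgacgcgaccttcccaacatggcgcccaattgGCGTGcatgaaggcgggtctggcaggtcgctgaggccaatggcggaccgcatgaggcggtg
Kdm5b: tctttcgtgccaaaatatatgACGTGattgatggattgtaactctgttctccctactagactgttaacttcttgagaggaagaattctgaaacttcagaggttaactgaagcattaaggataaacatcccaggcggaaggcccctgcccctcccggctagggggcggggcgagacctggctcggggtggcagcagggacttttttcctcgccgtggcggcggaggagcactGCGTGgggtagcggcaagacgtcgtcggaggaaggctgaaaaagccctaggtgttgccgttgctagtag
Kdm4a: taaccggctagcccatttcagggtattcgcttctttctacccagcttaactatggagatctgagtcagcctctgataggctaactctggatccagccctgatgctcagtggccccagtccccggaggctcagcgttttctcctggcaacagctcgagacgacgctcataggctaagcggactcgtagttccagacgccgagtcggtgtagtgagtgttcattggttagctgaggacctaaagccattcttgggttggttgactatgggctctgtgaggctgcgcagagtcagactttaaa

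The Kdm3a window lies at chr6:71632868-71633167 on the minus strand, with GCGTG at position -27, where -1 is the last base before the start. The Jmjd6 window (chr11:116843400-116843699, minus strand) holds GCGTG at -11 and CACGT, the reverse complement of ACGTG, at -228. In Kdm5b (chr1:134559928-134560227, plus strand), ACGTG begins at -229 and GCGTG at -19. Kdm2b had GCGTG at -230, and neither motif was in the windows of Kdm4a (chr4:118179994-118180293, minus strand) or Kdm4c. Across 32851 windows of the same length, 19.6% hold ACGTG, 32.4% hold GCGTG and 43.8% hold at least 1 of them, so 4 of 6 matched members is a description and not a sign of binding. Kdm4c, with neither motif in its searched window, rose in both genotypes, and Kdm2b, with GCGTG in its own, fell in AXL WT cells. Kdm2b has 4 windows, Kdm3a 3 and Kdm4c 2, and only the nearest of each was searched. The start of the Kdm2b window lies 724 bases from the gene's 5′ end. The part of these motifs in the responses was not tested.

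Levels of different genes were compared as CPM per kilobase of exon, a level that divides the scaled count by the annotated exon length. In AXL KO hypoxia the order was led by Jmjd6 at 92.8 ± 11.7, then Kdm6b at 76.7 ± 5.44, Kdm3a at 70.4 ± 8.28 and Kdm4b at 62.1 ± 1.33 CPM per kilobase (SD, n = 3). In AXL WT hypoxia Jmjd6 again led at 137 ± 40.3, then Kdm3a at 61.4 ± 16.95, Kdm6b at 59.9 ± 6.38 and Kdm4b at 36.9 ± 2.54 CPM per kilobase (SD, n = 3). The ranges of Kdm6b and Kdm3a overlapped in both hypoxic groups, as did those of Kdm3a and Kdm4b in AXL KO hypoxia. Within each AXL KO hypoxia library Kdm6b lay above Kdm3a, at 82.2, 76.5 and 71.3 against 79.2, 62.7 and 69.4 CPM per kilobase. The other overlapping pairs changed order between libraries. These orders were not tested.

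In AXL KO normoxia Kdm6b (30.1 ± 1.69) and Kdm4b (25.5 ± 2.96) were highest and overlapped, and in AXL WT normoxia Kdm4a (15.1 ± 1.01) and Kdm6b (15.0 ± 0.23) were highest and overlapped, all in CPM per kilobase (SD, n = 3). Kdm2b was lowest in every group, at 2.62 ± 0.08 in AXL KO hypoxia, 1.24 ± 0.33 in AXL WT hypoxia, 2.39 ± 0.08 in AXL KO normoxia and 2.49 ± 0.07 CPM per kilobase in AXL WT normoxia. Summed over the 10 genes, the level was 364 ± 27.1 in AXL KO hypoxia, 358 ± 65.6 in AXL WT hypoxia, 131 ± 5.47 in AXL KO normoxia and 84.6 ± 2.24 CPM per kilobase in AXL WT normoxia (SD, n = 3). The sums of the hypoxic groups overlapped each other, and every hypoxic library lay above every normoxic one.

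**Figure D1:**
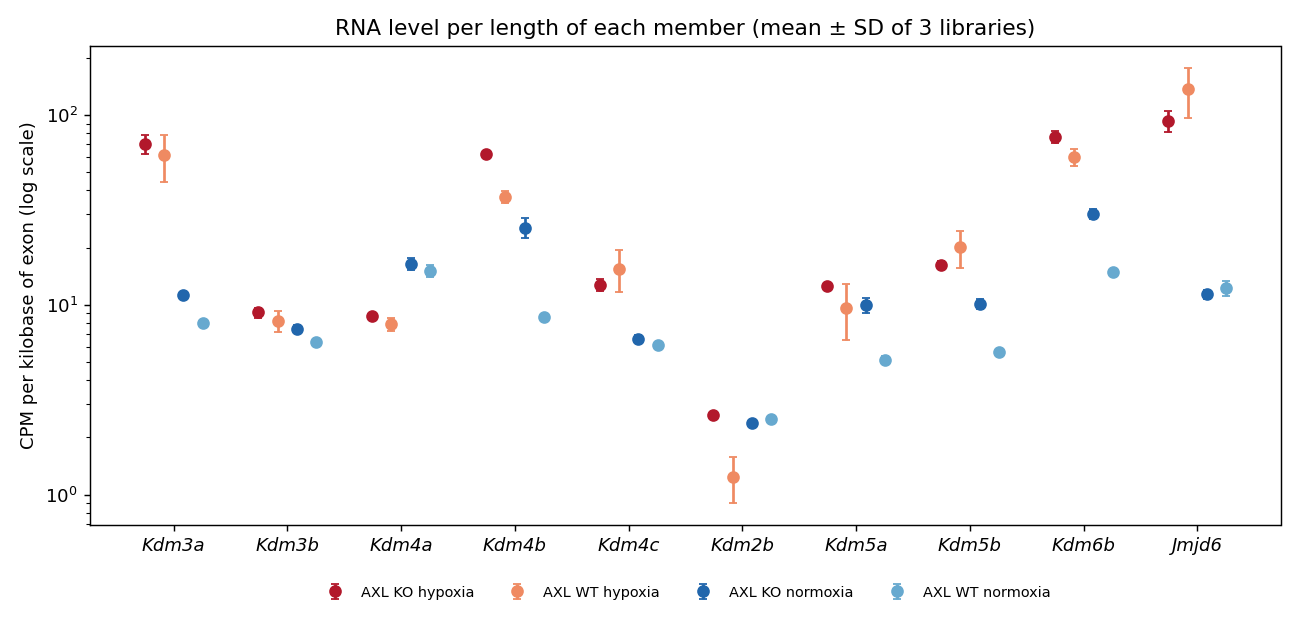
RNA level of each of the 10 genes in the 4 groups, as CPM per kilobase of exon on a log axis, with points for means and bars for the SD of 3 libraries. Jmjd6, Kdm6b, Kdm3a and Kdm4b form the top of both hypoxic groups, and Kdm2b is lowest throughout.

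The first question was how each gene answered low oxygen. In AXL WT cells all 10 genes were called, against 59.8% of all 16767 tested genes. Of these 8 rose, where 29.2% of all genes were called higher, and 2 fell, where 30.7% of all genes were called lower (edgeR quasi-likelihood test, Benjamini-Hochberg adjusted p under 0.05). In AXL KO cells 8 were called (background 58%), of which 7 rose (background 27.3%), Kdm4a fell (background 30.6%), while Kdm2b and Kdm5a were not called. Altogether 8 genes were called in the same direction in both genotypes, against 35.5% of all tested genes. The median response of the 10 was 0.82 on the log2 scale in AXL KO cells and 1.59 in AXL WT cells, beside -0.03 in AXL KO and -0.02 in AXL WT cells over all tested genes. Hypoxic and normoxic libraries did not overlap for any of the 10 genes within a genotype, which held for 76% of all genes in AXL KO and 61.4% in AXL WT cells.

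**Figure D2:**
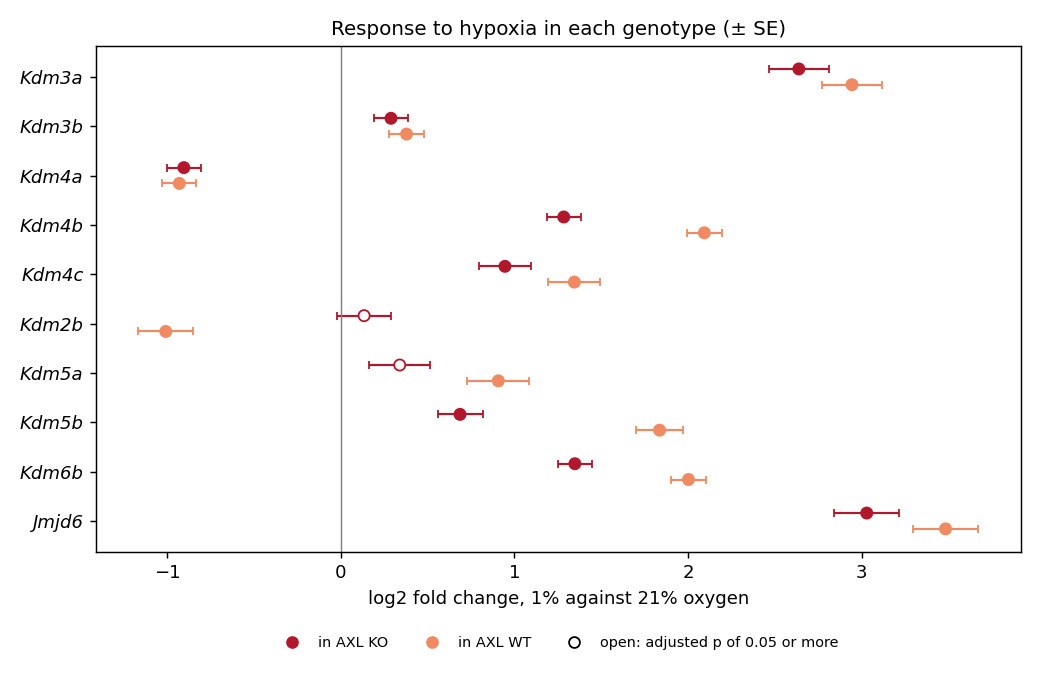
Log2 fold change of hypoxia over normoxia for each gene in AXL KO and AXL WT cells, with bars for the standard error and open points for an adjusted p of 0.05 or more. Jmjd6 and Kdm3a lie farthest to the right in both genotypes, Kdm4a lies left of zero in both, and Kdm2b differs between them.

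Among the erasers of H3K9 mono- and dimethylation, Kdm3a (ENSMUSG00000053470, GRCm38 chr6:71588972-71632990) showed the second-highest response of the 10 genes and its paralog Kdm3b (ENSMUSG00000038773, chr18:34777047-34838660) the smallest called rise. Kdm3a had 651, 516 and 571 CPM in AXL KO hypoxia, 479, 656 and 381 CPM in AXL WT hypoxia, 92.97, 89.7 and 96.5 in AXL KO normoxia, and 67.5, 65.0 and 64.4 CPM in AXL WT normoxia. Every hypoxic library exceeded every normoxic one, and the hypoxic groups of both genotypes overlapped. The response was 2.64 ± 0.17 in AXL KO cells (edgeR adjusted p = 4.24e-07) and 2.94 ± 0.17 in AXL WT cells (adjusted p = 1.63e-07), which placed it at rank 621 in AXL KO and 724 in AXL WT cells from the top of all tested genes. Fold changes are log2, and the value after ± is the standard error.

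Between genotypes Kdm3a was higher in AXL KO than in AXL WT normoxia by 0.50 ± 0.16 (edgeR adjusted p = 0.0177), a call lost without AXL KO normoxia replicate 3 (0.48, adjusted p = 0.0513) and with library size alone (0.25, adjusted p = 0.132). The call was kept in the other 12 of 14 alternatives, among them the fit of only the 6 normoxic libraries (0.49, adjusted p = 5.16e-06). In hypoxia the difference was 0.20 ± 0.16 (adjusted p = 0.30). Without AXL WT hypoxia replicate 2, which was the highest of its group, the hypoxic difference was 0.43 and was called (adjusted p = 0.00753), as it was without replicates 2 and 3 (0.27, adjusted p = 0.0356).

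Kdm3b ranged from 122 to 137 CPM in AXL KO hypoxia, 102 to 131 CPM in AXL WT hypoxia, 98.9 to 109 in AXL KO normoxia and 87.8 to 90.3 CPM in AXL WT normoxia. It rose with hypoxia by 0.29 ± 0.10 in AXL KO cells (edgeR adjusted p = 0.0264) and 0.38 ± 0.10 in AXL WT cells (adjusted p = 0.00638). Scaling by library size alone took both calls away (adjusted p = 0.456 in AXL KO and 0.471 in AXL WT cells). Without AXL WT hypoxia replicates 2 and 3 the AXL WT response of Kdm3b was 0.57. The call in AXL KO cells was also lost without AXL KO hypoxia replicates 1 or 3, or without AXL KO normoxia replicates 1 or 2 (0.24 to 0.30, adjusted p 0.0591 to 0.111). Between genotypes Kdm3b differed by 0.14 ± 0.10 in hypoxia (edgeR adjusted p = 0.225), which was 0.25 once AXL WT hypoxia replicate 1 was left out (adjusted p = 0.0172) and -0.04 without replicates 2 and 3. In normoxia it differed by 0.23 ± 0.10 (adjusted p = 0.0615, and 0.0495 by DESeq2). This normoxic difference was also called by voom with group weights (0.23, adjusted p = 0.00231) and with only the 6 normoxic libraries in the edgeR fit (0.22, adjusted p = 0.00412). It was 0.24 without AXL WT hypoxia replicates 2 and 3, and -0.02 with library size alone (edgeR adjusted p = 0.844). Kdm3a made up 88.5% ± 0.59 of the pair's summed CPM per kilobase in AXL KO hypoxia and 87.8% ± 2.55 in AXL WT hypoxia, against 60.3% ± 0.53 in AXL KO normoxia and 55.7% ± 0.44 in AXL WT normoxia (SD, n = 3).

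The KDM4 genes encode demethylases of H3K9 and H3K36 trimethylation, and the 3 paralogs went different ways. Kdm4b (ENSMUSG00000024201, chr17:56326062-56402870) had 308, 307 and 297 CPM in AXL KO hypoxia, 195, 171 and 176 CPM in AXL WT hypoxia, 115, 118 and 141 in AXL KO normoxia, and 41.5, 41.6 and 44.1 CPM in AXL WT normoxia. No 2 of the 4 groups overlapped, and the AXL KO libraries were the higher ones at each oxygen level. Kdm4b was higher in AXL KO than in AXL WT cells by 0.75 ± 0.10 in hypoxia (edgeR adjusted p = 3.53e-05) and by 1.56 ± 0.10 in normoxia (adjusted p = 8.06e-08), where its fold was 2.95.

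Hypoxia raised Kdm4b by 1.28 ± 0.10 in AXL KO cells (edgeR adjusted p = 1.11e-06) and by 2.09 ± 0.10 in AXL WT cells (adjusted p = 4.28e-08). The difference of these responses was -0.81 ± 0.13 (adjusted p = 0.00116), and -0.93 without AXL WT hypoxia replicates 2 and 3. Without those libraries the hypoxic difference between genotypes was 0.64 (adjusted p = 4.71e-05) and the AXL WT response 2.21.

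Kdm4a (ENSMUSG00000033326, chr4:118136957-118180043) moved the other way. It had 48.6, 51.7 and 51.8 CPM in AXL KO hypoxia, 47.4, 41.7 and 48.3 CPM in AXL WT hypoxia, 103, 91.1 and 90.4 in AXL KO normoxia, and 85.2, 82.7 and 93.8 CPM in AXL WT normoxia. All 6 hypoxic libraries lay below all 6 normoxic ones. Its genotypes differed by 0.15 ± 0.10 in hypoxia and 0.12 ± 0.10 in normoxia (edgeR adjusted p = 0.205 in hypoxia and 0.301 in normoxia). The response was -0.90 ± 0.10 in AXL KO cells (edgeR adjusted p = 1.39e-05) and -0.93 ± 0.10 in AXL WT cells (adjusted p = 9.28e-06), with a difference of responses of 0.03 ± 0.14 (adjusted p = 0.921).

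Kdm4c (ENSMUSG00000028397, chr4:74242497-74405860) ranged from 69.9 to 80.2 CPM in AXL KO hypoxia, 73.0 to 116 CPM in AXL WT hypoxia, 36.3 to 40.0 in AXL KO normoxia and 34.4 to 36.3 CPM in AXL WT normoxia. Its rise with hypoxia was 0.95 ± 0.15 in AXL KO cells (edgeR adjusted p = 0.000212) and 1.34 ± 0.15 in AXL WT cells (adjusted p = 1.48e-05). In neither oxygen level did its genotypes separate, with differences of -0.29 ± 0.15 in hypoxia (adjusted p = 0.107) and 0.11 ± 0.15 in normoxia (adjusted p = 0.527). The hypoxic difference was called at -0.42 when AXL WT hypoxia replicate 3 was left out (adjusted p = 0.0213). It was -0.07 without replicate 2 (adjusted p = 0.518) and -0.15 without replicates 2 and 3 (adjusted p = 0.172).

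The make-up of KDM4 transcripts shifted accordingly. Kdm4a held 10.5% ± 0.56 of the 3 paralogs' summed CPM per kilobase in AXL KO hypoxia, 13.2% ± 1.53 in AXL WT hypoxia, 33.9% ± 3.26 in AXL KO normoxia and 50.5% ± 0.91 in AXL WT normoxia (SD, n = 3). Kdm4b held 74.3% ± 0.57 in AXL KO hypoxia, 61.3% ± 4.26 in AXL WT hypoxia, 52.5% ± 3.86 in AXL KO normoxia and 29.0% ± 0.51 in AXL WT normoxia. The most abundant KDM4 transcript was thus Kdm4b in the first 3 groups and Kdm4a in AXL WT normoxia. These shares were described and not tested.

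**Figure D3:**
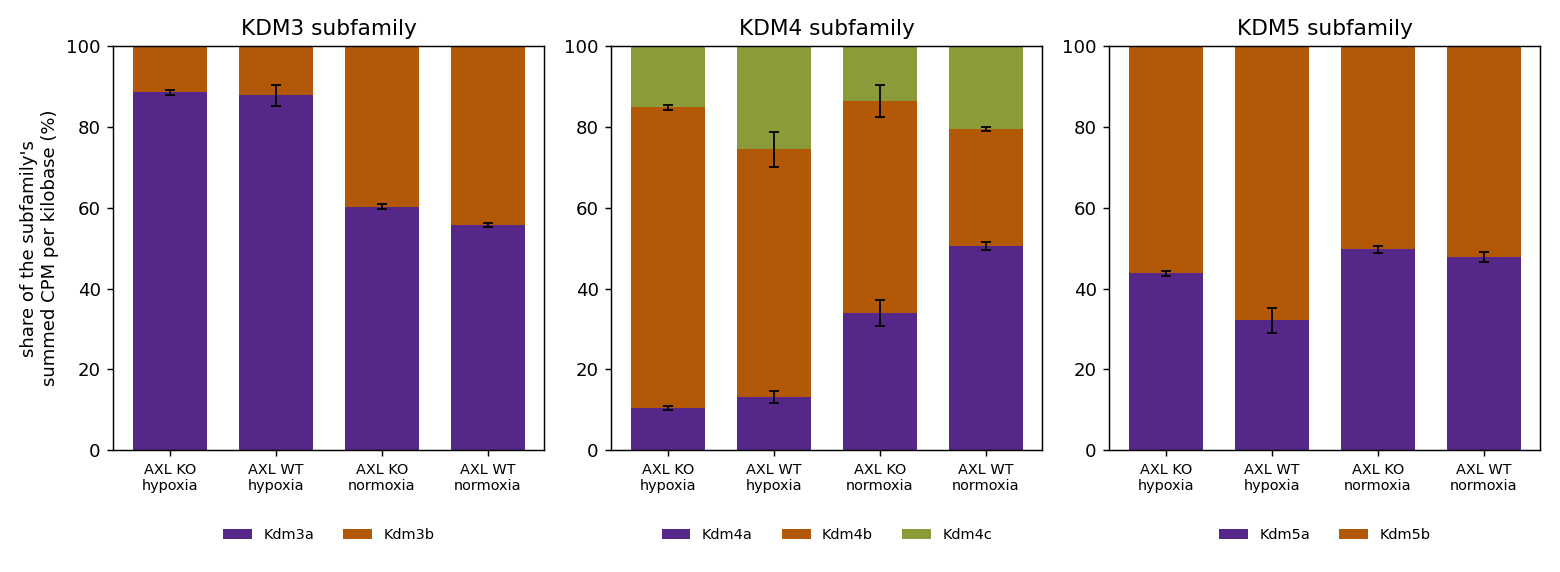
Share of each paralog in the summed CPM per kilobase of the KDM3, KDM4 and KDM5 genes measured here, as stacked bars for the 4 groups with the SD of 3 libraries at each boundary. Kdm3a fills 88.5% and 87.8% of the Kdm3a and Kdm3b sum in the hypoxic groups. Kdm4a shrinks to under 14% of the Kdm4a, Kdm4b and Kdm4c sum in hypoxia, and Kdm5b reaches 67.8% of the Kdm5a and Kdm5b sum in AXL WT hypoxia.

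Kdm2b (ENSMUSG00000029475, chr5:122870665-122989823) encodes an H3K36 demethylase whose CXXC zinc finger brings the variant Polycomb complex PRC1.1 to unmethylated CpG islands. It had 28.0, 29.5 and 28.0 CPM in AXL KO hypoxia, 17.4, 10.3 and 12.7 CPM in AXL WT hypoxia, 26.6, 25.0 and 26.3 in AXL KO normoxia, and 27.7, 27.3 and 26.2 CPM in AXL WT normoxia. The AXL WT hypoxia libraries were low and overlapped no other group, while the remaining groups lay between 25.0 and 29.5 CPM. Hypoxia changed Kdm2b by 0.13 ± 0.16 in AXL KO cells (edgeR adjusted p = 0.486) and by -1.01 ± 0.16 in AXL WT cells (adjusted p = 0.000208).

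In hypoxia Kdm2b was 2.12-fold higher in AXL KO than in AXL WT cells (log2 1.08 ± 0.16, edgeR adjusted p = 0.000111), and in normoxia the difference was -0.06 ± 0.16 (adjusted p = 0.758). The difference of responses was 1.14 ± 0.22 (adjusted p = 0.00314). It was 0.76 without AXL WT hypoxia replicates 2 and 3, and the hypoxic genotype difference was then 0.71 (adjusted p = 1.29e-05) and the AXL WT response -0.63.

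The H3K4 demethylases Kdm5a and Kdm5b both had higher levels in AXL KO than in AXL WT normoxia. Kdm5b (ENSMUSG00000042207, chr1:134560171-134635285), known for its expression in breast cancer, had 284, 264 and 258 CPM in AXL KO hypoxia, 300.3, 415 and 280.1 CPM in AXL WT hypoxia, 173, 155 and 172 in AXL KO normoxia, and 91.4, 95.05 and 92.3 CPM in AXL WT normoxia. The hypoxic groups overlapped slightly, and the normoxic groups were apart with AXL KO higher. Hypoxia raised it by 0.69 ± 0.13 in AXL KO cells (edgeR adjusted p = 0.000792) and by 1.84 ± 0.13 in AXL WT cells (adjusted p = 6.29e-07).

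Normoxic Kdm5b was higher in AXL KO than in AXL WT cells by 0.85 ± 0.13 (edgeR adjusted p = 0.000141). In hypoxia the genotype difference was -0.30 ± 0.13 (adjusted p = 0.0573), and it was called under RLE scaling, library size alone and DESeq2, and without AXL WT hypoxia replicate 1 or 3 (-0.33 to -0.46, adjusted p 0.00272 to 0.0431). It was smaller, at -0.12 when AXL WT hypoxia replicate 2 was left out (adjusted p = 0.23) and at -0.17 without replicates 2 and 3 (adjusted p = 0.11). The difference of responses, -1.15 ± 0.18 (adjusted p = 0.000894), was the largest in size among the 10 genes in this fit. It was -1.01 without AXL WT hypoxia replicates 2 and 3.

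Kdm5a (ENSMUSG00000030180, chr6:120364124-120444574) had 186, 173 and 176 CPM in AXL KO hypoxia, 103, 188 and 119 CPM in AXL WT hypoxia, 146, 127 and 151 in AXL KO normoxia, and 75.0, 74.8 and 68.7 CPM in AXL WT normoxia. AXL WT hypoxia replicate 2 reached the AXL KO level while its replicates 1 and 3 did not. In normoxia Kdm5a was higher in AXL KO than in AXL WT cells by 0.95 ± 0.18 (edgeR adjusted p = 0.000618). In hypoxia the difference of Kdm5a was 0.39 ± 0.18 (adjusted p = 0.0756), and 0.68 (adjusted p = 0.000121) without AXL WT hypoxia replicate 2, or 0.78 (adjusted p = 3.68e-06) without replicates 2 and 3.

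Its response to hypoxia was 0.34 ± 0.18 in AXL KO cells (edgeR adjusted p = 0.12, and 0.000986 by voom with group weights) and 0.91 ± 0.18 in AXL WT cells (adjusted p = 0.000991). With only the 6 AXL KO libraries in the edgeR fit, the AXL KO response was called at the same size (0.34, adjusted p = 0.00131). Without AXL WT hypoxia replicates 2 and 3 the AXL KO response was 0.34 and the AXL WT response 0.52. The difference of responses, -0.57 ± 0.25 (adjusted p = 0.111), was called only when AXL WT hypoxia replicate 1 was left out (-0.73, adjusted p = 0.00832). It shrank to -0.28 without replicate 2 (adjusted p = 0.133) and to -0.17 without replicates 2 and 3 (adjusted p = 0.291). Kdm5b took 56.3% ± 0.60 of the pair's summed CPM per kilobase in AXL KO hypoxia, 67.8% ± 3.09 in AXL WT hypoxia, 50.3% ± 0.89 in AXL KO normoxia and 52.2% ± 1.21 in AXL WT normoxia (SD, n = 3).

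Kdm6b (ENSMUSG00000018476, chr11:69398508-69413675), also known as Jmjd3, removes methyl groups from H3K27 and so acts against Polycomb repression. It had 572, 532 and 496 CPM in AXL KO hypoxia, 466, 406 and 379 CPM in AXL WT hypoxia, 221, 198 and 209 in AXL KO normoxia, and 104, 102 and 106 CPM in AXL WT normoxia. The 4 groups did not overlap, with AXL KO above AXL WT at each oxygen level. In normoxia the fold was 2.01 (log2 1.01 ± 0.10, edgeR adjusted p = 2.54e-06), and in hypoxia 1.28 (log2 0.36 ± 0.09, adjusted p = 0.00614).

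The hypoxic genotype difference of Kdm6b was lost without AXL WT hypoxia replicates 2 and 3 (0.19, edgeR adjusted p = 0.0883), with only the 6 hypoxic libraries in the fit (0.31, adjusted p = 0.0797) and with library size alone (0.19, adjusted p = 0.0754). Hypoxia raised Kdm6b by 1.35 ± 0.10 in AXL KO cells (adjusted p = 7.71e-07) and by 2.00 ± 0.10 in AXL WT cells (adjusted p = 5.15e-08). The difference of responses was -0.65 ± 0.13 (adjusted p = 0.00407), and -0.82 without AXL WT hypoxia replicates 2 and 3.

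Jmjd6 (ENSMUSG00000056962, chr11:116837432-116843449) had the largest rise of the 10 genes with low oxygen in both genotypes. It had 499, 395 and 414 CPM in AXL KO hypoxia, 538, 862 and 530 CPM in AXL WT hypoxia, 49.99, 56.2 and 54.0 in AXL KO normoxia, and 56.4, 53.1 and 63.1 CPM in AXL WT normoxia. The AXL KO hypoxia libraries all lay below the AXL WT hypoxia ones, and the normoxic groups overlapped. The fold with hypoxia was 8.16 in AXL KO cells (log2 3.03 ± 0.19, edgeR adjusted p = 2.93e-07) and 11.2 in AXL WT cells (log2 3.48 ± 0.19, adjusted p = 1.01e-07), which placed it at rank 446 in AXL KO and 497 in AXL WT cells from the top.

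In hypoxia Jmjd6 was lower in AXL KO than in AXL WT cells by 0.56 on the log2 scale (-0.56 ± 0.17, edgeR adjusted p = 0.0136). AXL WT hypoxia replicate 2 was far above the other 5 hypoxic libraries, and without it the difference was -0.30 (adjusted p = 0.0342), and without replicates 2 and 3 it was -0.31 (adjusted p = 0.0329). The adjusted p passed 0.05 without AXL KO hypoxia replicate 2 (-0.49, adjusted p = 0.0567) and with only the 6 hypoxic libraries in the fit (-0.61, adjusted p = 0.0538), at about the same size. In normoxia the difference was -0.11 ± 0.17 (adjusted p = 0.611), and the difference of responses was -0.45 ± 0.24 (adjusted p = 0.186).

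**Figure D4:**
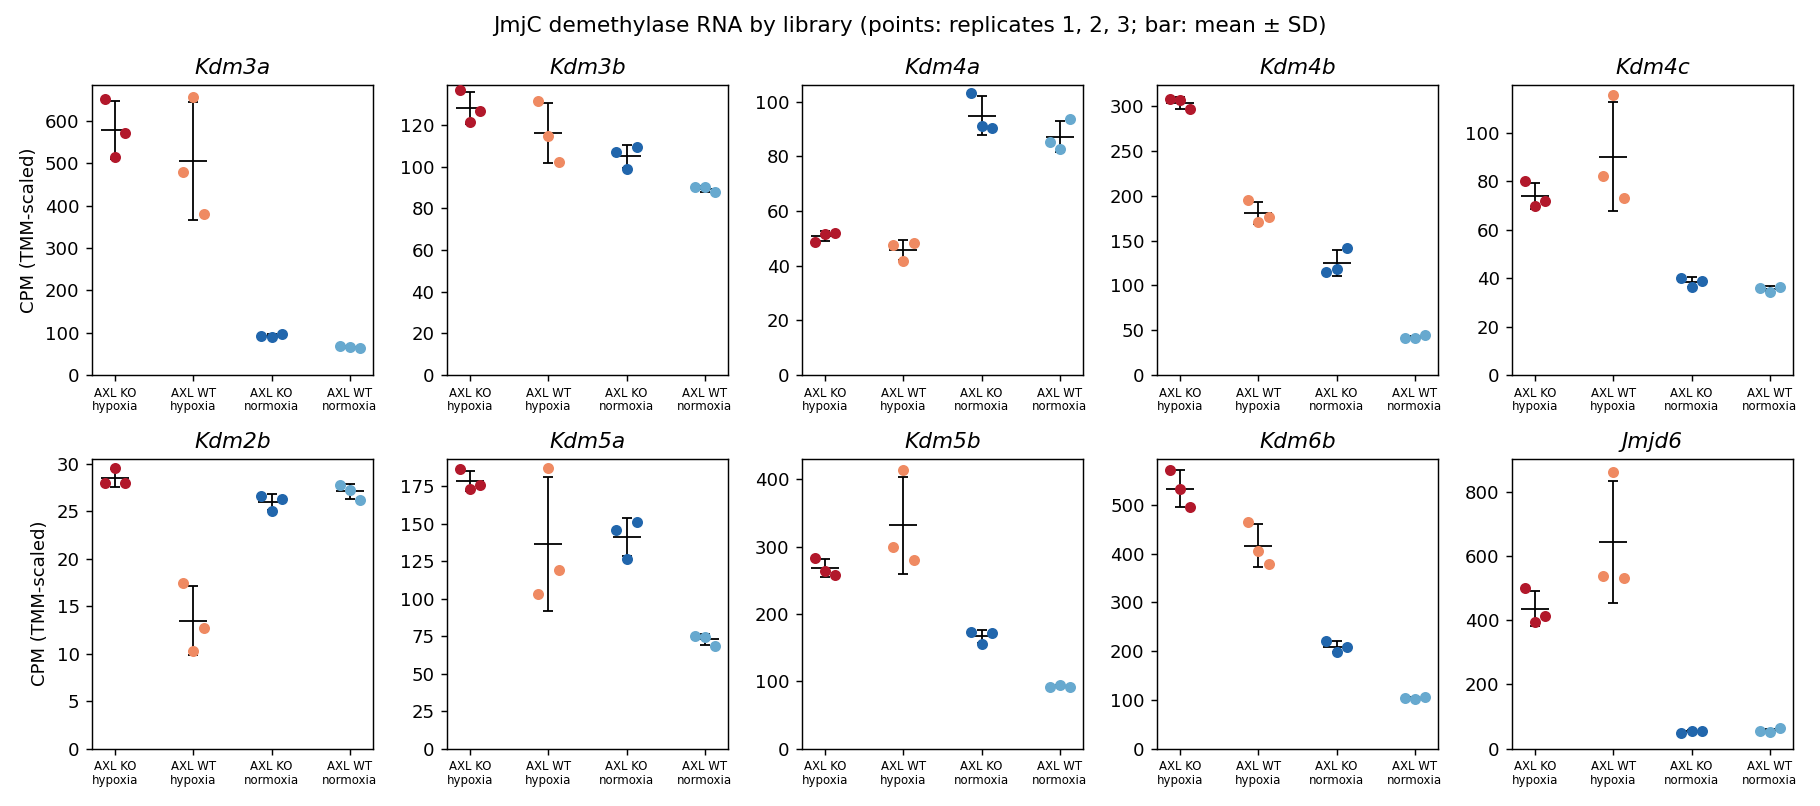
CPM of each gene in every library, 1 panel per gene, with 3 points per group and a bar for the mean ± SD. Kdm2b is low only in AXL WT hypoxia, Kdm4a is low in both hypoxic groups, and Kdm4b and Kdm6b are higher in AXL KO than in AXL WT at each oxygen level.

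The comparison of genotypes asked how these genes differ with the loss of AXL. In hypoxia 4 of 10 genes were called, against 63% of all tested genes. Kdm2b, Kdm4b and Kdm6b were higher in AXL KO than in AXL WT cells and Jmjd6 was lower, so 3 of 10 were called higher where 29.9% of all tested genes were, and 1 lower where 33% were. Libraries of the genotypes did not overlap for 5 of 10 genes, against 62.6% of all genes. The share called higher was close to the background, and the share called lower was below it. In normoxia 5 of 10 (Kdm3a, Kdm4b, Kdm5a, Kdm5b and Kdm6b) were higher in AXL KO than in AXL WT cells, where 29.7% of all genes were. The other 5 were not called in either direction, where 59.7% of all genes were called and 30% called lower. There the libraries did not overlap for 6 of 10 genes, against 79.7% of all genes. The median difference of the 10 was 0.17 in hypoxia and 0.37 in normoxia, beside -0.04 in hypoxia and -0.03 in normoxia over all tested genes. The 8 hypoxia check genes summed to 8161 to 8440 CPM in AXL KO hypoxia, 3855 to 5640 CPM in AXL WT hypoxia, 1619 to 2299 in AXL KO normoxia and 629 to 688 CPM in AXL WT normoxia, so they moved with genotype in the same direction as Kdm4b and Kdm6b. Their part in those differences was not tested.

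**Figure D5:**
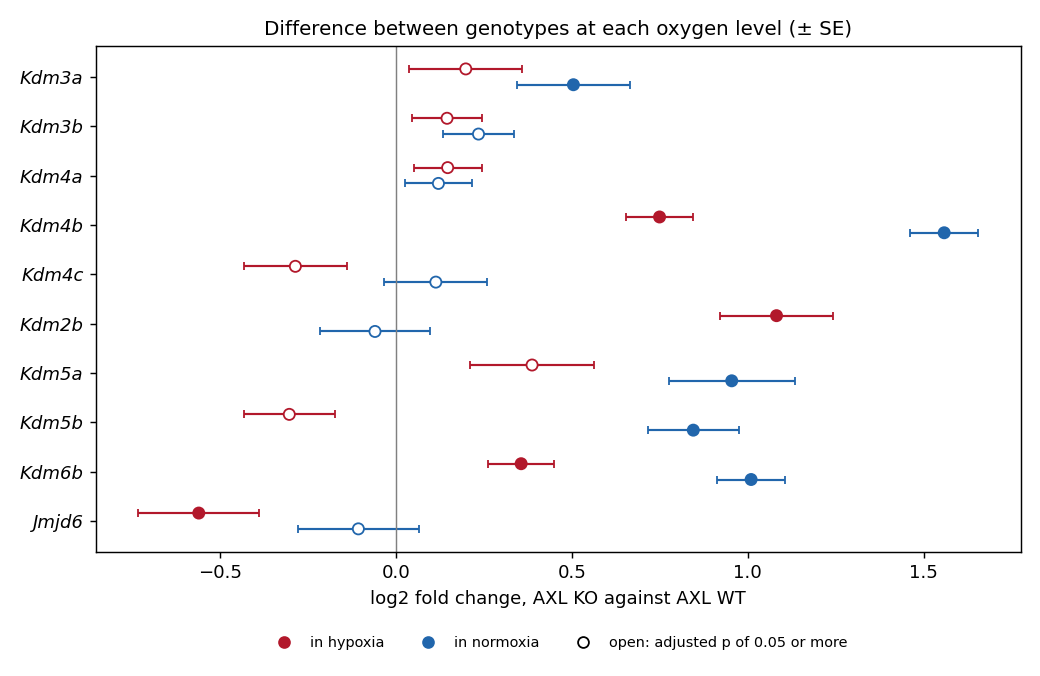
Log2 fold change of AXL KO over AXL WT for each gene in hypoxia and in normoxia, with bars for the standard error and open points for an adjusted p of 0.05 or more. Kdm4b and Kdm6b lie right of zero at both oxygen levels, Kdm2b only in hypoxia, and Kdm3a, Kdm5a and Kdm5b only in normoxia among called values.

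The response to hypoxia differed between genotypes, by the interaction test itself, for 4 of 10 genes, against 28.8% of all tested genes. It was larger in AXL KO for Kdm2b, where 13.5% of all genes were called larger, and smaller in AXL KO for Kdm4b, Kdm5b and Kdm6b, where 15.3% were called smaller. These 4 were called in each of the 19 alternatives run. The median difference of responses was -0.43 for the 10 genes and -0.03 for all tested genes. For Kdm4b, Kdm5b and Kdm6b the AXL KO cells also had the higher normoxic level, which is shared by the normoxic comparison and the interaction.

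The genes whose profile over the 12 libraries was nearest to each member were listed by the root mean square difference of centred log2(CPM + 1), among 9082 protein-coding candidates averaging at least 10 CPM. Kdm3a was nearest to Vegfa (0.23), the vascular growth factor, and Sesn1 (0.24). Kdm4b was nearest to Bnip3l (0.10), a mitophagy receptor, and Mboat2 (0.14), and Kdm6b to Cdkn1a (0.15), the p21 cell cycle inhibitor, and Lss (0.15), a sterol synthesis enzyme. Jmjd6 was nearest to Arhgap28 (0.23) and Gabre (0.25), and Kdm2b to Rnf11 (0.10) and Cdk2 (0.10), a cell cycle kinase. The nearest genes were Klhl15 and Sec62 for Kdm3b, Inpp5b and Abracl for Kdm4a, Fgd6 and Pcm1 for Kdm4c, Zfp628 and Atp2b1 for Kdm5a, and Bsdc1 and Serinc2 for Kdm5b, with differences of 0.07 to 0.13. Among the members themselves Kdm4b and Kdm6b were the closest pair (0.25). These are descriptions over libraries that share groups, and carry no test.

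Of 21 other JmjC genes 18 were tested. Kdm5d and Uty, on the Y chromosome, had 0 counts in all libraries, and Kdm4d averaged at most 0.18 CPM in a group, and these 3 were named after their counts were seen. With hypoxia 7 rose and 5 fell in AXL KO cells and 6 rose and 3 fell in AXL WT cells, with medians of 0.26 in AXL KO and 0.10 in AXL WT cells, beside -0.03 in AXL KO and -0.02 in AXL WT cells over all tested genes. Leaving out AXL WT hypoxia replicates 2 and 3, 7 rose and 6 fell in AXL WT cells.

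Kdm7a, an eraser of H3K9 and H3K27 dimethylation, had 458, 295 and 329.9 CPM in AXL KO hypoxia, 509, 407 and 360.1 CPM in AXL WT hypoxia, 69.3 to 92.1 in AXL KO normoxia and 42.5 to 48.6 CPM in AXL WT normoxia. Its response was 2.12 ± 0.18 in AXL KO cells and 3.24 ± 0.19 in AXL WT cells, and the difference of responses was -1.11 ± 0.25 (edgeR adjusted p = 0.0068). Kdm5c, the X-linked paralog of Kdm5a and Kdm5b, rose by 0.35 ± 0.09 in AXL KO and 1.22 ± 0.09 in AXL WT cells, with a difference of responses of -0.87 ± 0.13 (adjusted p = 0.000638). Kdm6a, the X-linked paralog of Kdm6b, was higher in AXL KO than in AXL WT cells by 1.36 ± 0.16 in hypoxia (adjusted p = 1.89e-05) and 2.02 ± 0.16 in normoxia (adjusted p = 6.96e-07). Without AXL WT hypoxia replicates 2 and 3 the differences of responses were -1.38 for Kdm7a and -0.69 for Kdm5c, and the hypoxic genotype difference of Kdm6a was 1.35.

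Jarid2, a JmjC protein without demethylase activity that works with Polycomb complex PRC2, rose by 1.16 ± 0.17 in AXL KO cells (edgeR adjusted p = 0.000124) and 1.56 ± 0.17 in AXL WT cells (adjusted p = 1.32e-05). Riox2, a ribosomal oxygenase, fell by 2.16 on the log2 scale in AXL KO cells (adjusted p = 2.26e-05) and by 2.15 in AXL WT cells (adjusted p = 2.00e-05). Hif1an, the asparaginyl hydroxylase that restrains HIF, was lower in AXL KO than in AXL WT cells, at -1.19 ± 0.19 in hypoxia (adjusted p = 0.00023) and -0.83 ± 0.19 in normoxia (adjusted p = 0.00262). The hypoxic difference of Hif1an was -0.58 without AXL WT hypoxia replicates 2 and 3.

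The enzymes that write the marks erased by the 10 genes were examined alongside. Their counts, here and in the next paragraphs, are descriptions to be set beside the shares of all tested genes. With hypoxia 27.3% of all tested genes rose and 30.6% fell in AXL KO cells, and 29.2% rose and 30.7% fell in AXL WT cells. Of 6 H3K9 methyltransferases, 3 rose and 1 fell with hypoxia in AXL KO cells, and 1 rose and 3 fell in AXL WT cells, with medians of 0.35 in AXL KO and -0.28 in AXL WT cells. Suv39h1, a writer of H3K9 trimethylation, had 9.68, 11.4 and 11.6 CPM in AXL KO hypoxia, 14.9, 14.1 and 13.8 CPM in AXL WT hypoxia, 9.65, 12.7 and 10.98 in AXL KO normoxia, and 49.4, 52.5 and 52.6 CPM in AXL WT normoxia. It was highest in AXL WT normoxia, and its difference of responses was 1.83 ± 0.18 (edgeR adjusted p = 3.40e-05). Its paralog Suv39h2 was lower in AXL KO than in AXL WT cells, at -2.01 ± 0.23 in hypoxia and -3.11 ± 0.24 in normoxia. Ehmt2, the H3K9 dimethyltransferase G9a, rose with hypoxia by 1.096 ± 0.12 in AXL KO and 0.50 ± 0.12 in AXL WT cells. Without AXL WT hypoxia replicates 2 and 3 the hypoxic difference of Suv39h2 was -1.94, the AXL WT rise of Ehmt2 was 0.82, and 2 of the 6 genes rose and 4 fell in AXL WT cells.

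Of 11 H3K4 methyltransferases and partners, 4 rose and 1 fell with hypoxia in AXL KO cells, and 6 rose and 4 fell in AXL WT cells (medians 0.17 in AXL KO and 0.55 in AXL WT cells). Kmt2b rose by 1.05 ± 0.16 in AXL KO and 1.27 ± 0.16 in AXL WT cells, while Setd1b, a subunit of a COMPASS complex, changed by -1.04 ± 0.11 in AXL KO and -2.17 ± 0.12 in AXL WT cells. Of 10 genes of the H3K27 methyltransferase PRC2, 5 rose and 2 fell in AXL KO cells, and 3 rose and 4 fell in AXL WT cells (medians 0.63 in AXL KO and -0.04 in AXL WT cells). The core subunits Eed and Suz12 rose in both genotypes. Eed rose by 1.27 ± 0.16 in AXL KO and 1.03 ± 0.16 in AXL WT cells, and Suz12 by 1.13 ± 0.12 and 0.66 ± 0.12. Other genes of this list did not follow them. Mean Ezh2 was 54.9 CPM in AXL KO hypoxia against 37.3 in AXL KO normoxia. In AXL WT cells it was 27.4 in hypoxia, where libraries ran from 17.1 to 46.9, against 46.7 in normoxia. Mean Rbbp4 and Rbbp7 were lower in hypoxia than in normoxia in both genotypes. In AXL WT cells 4 of the PRC2 genes rose and 2 fell without its hypoxia replicates 2 and 3.

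Of 6 H3K36 methyltransferases 2 rose and 2 fell with hypoxia in AXL KO cells, and 2 rose and 3 fell in AXL WT cells (medians -0.18 in AXL KO and -0.36 in AXL WT cells). Nsd1, a writer of H3K36 dimethylation, had 53.4 to 60.4 CPM in AXL KO hypoxia, 9.21 to 15.9 CPM in AXL WT hypoxia, 124 to 143 in AXL KO normoxia and 53.0 to 60.9 CPM in AXL WT normoxia. Its response was -1.24 ± 0.18 in AXL KO and -2.26 ± 0.18 in AXL WT cells (edgeR adjusted p = 0.000106 in AXL KO and 1.36e-06 in AXL WT cells). Of 9 PRC1.1 partners of Kdm2b, 4 rose and 1 fell in AXL KO cells, and 4 rose and 2 fell in AXL WT cells (medians 0.36 in AXL KO and -0.06 in AXL WT cells). Ring1, an E3 ligase subunit of PRC1, was higher in AXL KO than in AXL WT cells by 1.49 ± 0.23 in hypoxia (adjusted p = 0.000142) and 0.67 ± 0.22 in normoxia (adjusted p = 0.0187). The hypoxic difference of Ring1 was 1.15 without AXL WT hypoxia replicates 2 and 3.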

How the data were processed

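The deposited values are whole-number counts of read pairs per gene, 1 table per library. Per the file headers they were made with featureCounts 1.6.0, Ensembl release 93 gene models of GRCm38 and reverse-stranded counting (setting 2), while the submitters' processing notes name featureCounts 1.4.6, STAR 2.5.1b, FastQC 0.11.5 and DESeq2 1.12.3. Groups follow the sample titles, since in 6 samples (AXL WT hypoxia and AXL KO normoxia) the genotype tag goes against the title. Reads from opposite-strand neighbours (Rnf34 at Kdm2b, for example) are kept apart by stranded counting.

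Counts were analysed with edgeR 4.0.16 (R 4.3.3): filterByExpr kept 16767 of 54232 genes, TMM factors were 0.860 to 1.22, and a quasi-likelihood fit over all 12 libraries and 4 groups (residual df 8) gave 5 contrasts, with Benjamini-Hochberg adjusted p over all tested genes and a threshold of 0.05. SE is the size of the log2 fold change divided by the square root of F. Alternatives used RLE factors, library size alone, no filter, DESeq2 1.42.0, limma 3.58.1 (voom), a replicate block and left-out libraries. The edgeR steps were tested on simulated data for AXL KO against AXL WT hypoxia alone. The simulation gave each gene the same spread in all groups. It therefore cannot show how the fit behaves with the wider spread of AXL WT hypoxia. CPM per kilobase divides TMM-scaled CPM by exon length.

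Named were all 10 genes, Axl, up to 3 genes with the smallest p per companion list and contrast, every gene of lists of 8 or fewer, and the 2 genes most like each member. The members and lists were chosen with earlier results of these data known. Same-group libraries differed by more than sampling noise. Promoter sequences are from RefSeq (GRCm38.p6), with 6 of 10 genes matched and Kdm3b not searched.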

Additional observations from a re-analysis of the deposited data

Results flagged for a closer look

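The response to hypoxia differed between AXL KO and AXL WT cells, by the interaction test itself, for 4 of the 10 genes (edgeR quasi-likelihood test with Benjamini-Hochberg adjustment). Over all 16767 tested genes the share called was 28.8%, so the count for so few genes is not far from the background. The difference, AXL KO response minus AXL WT response on the log2 scale, was 1.14 ± 0.22 for Kdm2b (adjusted p = 0.00314), -0.81 ± 0.13 for Kdm4b (adjusted p = 0.00116), -1.15 ± 0.18 for Kdm5b (adjusted p = 0.000894) and -0.65 ± 0.13 for Kdm6b (adjusted p = 0.00407). Over the 19 alternatives it ran from 0.76 to 1.38 for Kdm2b, -0.93 to -0.71 for Kdm4b, -1.26 to -0.96 for Kdm5b and -0.82 to -0.56 for Kdm6b. All 4 rest on the AXL WT hypoxia libraries, the group with the widest spread.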

How the results depend on the processing

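Over 750 alternative values for the 10 genes, 715 stayed on the same side of the threshold, 14 lost the call and 21 gained it. The sign changed in 20 of them, each not called before or after and at most 0.23 in size, while 0 called values changed sign. The number of the 10 genes called in AXL KO against AXL WT hypoxia was 4, and 2 with only the 6 compared libraries. The number of all genes with a called difference of responses was 4830, and 3582 to 8417 when 1 library was left out, the highest without AXL WT hypoxia replicate 1. Library size alone moved the median over all genes to -0.21 (AXL KO against AXL WT hypoxia), -0.29 (the same in normoxia), -0.32 (hypoxia in AXL WT) and -0.23 (hypoxia in AXL KO). The replicate block called 4, 5, 10, 8 and 4 of the 10 genes in the 5 contrasts, and 10425, 9915, 9875, 9582 and 4521 of all genes. Same-numbered libraries correlated at -0.06 to 0.12, so the numbers did not pair them.

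Among 6141 alternative values for companion genes, 193 changed sign. In 14 of these there was a call on at least 1 side, and the cause was not tested. Without AXL WT hypoxia replicates 2 and 3, the AXL KO against AXL WT hypoxia difference was 0.0685 for Hdac1, -0.37 for Krt8 and -0.21 for Rbbp7. The AXL WT response was then 0.99 for Erbb2, -0.77 for Hdac1 and -0.26 for Ogdh, and the difference of responses was -0.73 for Erbb2, -0.83 for Fabp4, 0.41 for Hdac1 and -0.38 for Idh3g. Leaving out 1 library gave -1.06 to 1.45 for Erbb2 between genotypes in hypoxia, and AXL WT responses of -0.45 to 0.31 for Hdac1 and -0.59 to 0.46 for Jmjd4. Library size alone gave an AXL WT response of -0.26 for Phf8. No alternative varied depth, so its effect was not tested.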

Other observations

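The other oxygen- and 2-oxoglutarate-dependent chromatin enzymes listed were the TET dioxygenases, which oxidise 5-methylcytosine. They were higher in AXL KO than in AXL WT cells for 2 of 3 genes in hypoxia and 3 of 3 in normoxia. Of all tested genes 29.9% were called higher in hypoxia and 29.7% in normoxia. Tet1 had 30.3, 29.0 and 26.3 CPM in AXL KO hypoxia, 0.685, 0.0469 and 0.249 CPM in AXL WT hypoxia, 5.81, 6.76 and 7.39 in AXL KO normoxia, and 0.123, 0.242 and 0.140 CPM in AXL WT normoxia. Tet3 was higher in AXL KO than in AXL WT cells by 1.13 ± 0.10 in hypoxia (edgeR adjusted p = 1.58e-06) and 1.52 ± 0.10 in normoxia (adjusted p = 1.07e-07). Tet2 rose with hypoxia by 1.13 ± 0.26 in AXL KO cells (edgeR adjusted p = 0.00264). In AXL WT cells it rose by 1.45 ± 0.26 (edgeR adjusted p = 0.000502). Its AXL WT hypoxia libraries had 140, 61.5 and 75.4 CPM. Without replicates 2 and 3 of that group, the AXL WT response of Tet2 was 2.06 and its difference of responses -0.93.

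The flavin-dependent demethylases do not use 2-oxoglutarate. The list held 7 genes of these enzymes and their CoREST partners. With hypoxia 5 rose in AXL KO cells (background 27.3%) and 2 in AXL WT cells (background 29.2%). Without AXL WT hypoxia replicates 2 and 3, 4 rose and 2 fell in AXL WT cells. Rcor2, a CoREST scaffold, had 73.1, 66.9 and 68.7 CPM in AXL KO hypoxia, 7.02, 5.67 and 5.15 CPM in AXL WT hypoxia, 8.38, 9.28 and 10.02 in AXL KO normoxia, and 5.55, 5.95 and 5.67 CPM in AXL WT normoxia. Its difference of responses was 2.86 ± 0.19 (edgeR adjusted p = 3.17e-06), and 2.61 without AXL WT hypoxia replicates 2 and 3.

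Of 14 enzymes that make or use 2-oxoglutarate, succinate or fumarate, 10 fell with hypoxia in AXL KO cells (background 30.6%). In AXL WT cells 1 rose (background 29.2%) and 7 fell (background 30.7%). These AXL WT counts differed without AXL WT hypoxia replicates 2 and 3. Idh1, which makes 2-oxoglutarate in the cytosol, had 88.2, 104 and 98.1 CPM in AXL KO hypoxia, 334, 533 and 698 CPM in AXL WT hypoxia, 153, 173 and 169 in AXL KO normoxia, and 93.2, 106 and 95.5 CPM in AXL WT normoxia. Its difference of responses was -3.18 ± 0.29 (edgeR adjusted p = 2.27e-05), and -2.54 without AXL WT hypoxia replicates 2 and 3.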
